A study of Mus musculus with 7 samples.

Results

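The transcriptional regulator genes Foxj1, Rfx1, Rfx2, Rfx3, Rfx4, Rfx5, Rfx7 and Mcidas, known regulators of cilium formation or members of their families, were followed in RNA sequencing of SMB21 cells. These 8 genes were found by symbol among the 24047 genes of the count table. They were selected on their levels in the same libraries, beside their known roles, with the differences between groups already seen. SMB21 is a mouse medulloblastoma cell line with the strain background Ptch1tm1Mps/J, labelled adult and Ptch mutant, and it was grown as neurospheres. All cells received a lentiCRISPR vector and were collected 2 weeks after infection. The Ofd1 CRISPR group (3 libraries) was targeted at the centriole and basal body gene Ofd1, and the Kif3a CRISPR group (2 libraries) at a motor subunit of kinesin-2, the motor of ciliary transport. The GFP control group (2 libraries) carried a guide against GFP. All 7 libraries therefore shared the Ptch mutation, the line, the vector and the harvest time. The labels do not state the guide sequences, the edited sites or whether the cells were clones or a pool, and a single cell line limits how far the groups stand for tumours.

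RFX proteins bind the X-box, a promoter element found upstream of many genes for intraflagellar transport and the ciliary base. Foxj1 drives the genes of the motile axoneme in ependymal, choroid plexus, airway and other cells with motile cilia, and it acts there together with Rfx2 and Rfx3. In multiciliated cells Gmnc and Mcidas, geminin family proteins that work with E2F factors, stand above Foxj1 in this cascade. Cerebellar granule neuron progenitors, the cells from which Hedgehog medulloblastoma arises, carry a primary cilium, which is not motile.

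Library totals ran from 17961767 to 23022701 counts. Levels are CPM, counts scaled to library size with edgeR's TMM factors, and 3 counts, the upper limit taken for an observed 0, corresponded to 0.130 to 0.167 CPM. Kif3a had levels of 73.9 and 60.5 CPM in Kif3a CRISPR, against 104 CPM in each GFP control library, and fell by 0.63 on the log2 scale (edgeR adjusted p = 0.000854). Ofd1 had levels of 21.0, 20.03 and 22.0 CPM in Ofd1 CRISPR, against 22.6 and 23.2 CPM in GFP control (log2 fold change -0.12, edgeR adjusted p = 0.398), so its mRNA level does not show whether the gene was edited. In Kif3a CRISPR Ofd1 stood at 31.7 and 29.0 CPM and was called higher than in GFP control (log2 fold change 0.41, edgeR adjusted p = 0.0126). It was called lower in Ofd1 CRISPR than in Kif3a CRISPR (-0.53, edgeR adjusted p = 0.0399), but not with only the groups compared in the fit (0.0962). Leaving out each library gave 0.35 to 0.47 and -0.59 to -0.47, and neither call held in every such fit. All 14 granule neuron progenitor markers were measured, with a summed level of 5430 to 6030 CPM in Ofd1 CRISPR, 5597 to 5692 CPM in Kif3a CRISPR and 5320 to 5379 CPM in GFP control. Many of them moved with the groups: in each comparison 5 rose (Atoh1, Barhl1, Meis1, Nhlh1 and Pax6) and 4 fell (Ccnd1, Gli1, Gli2 and Mycn), 64.3% against 14.9% of all genes in Ofd1 CRISPR and 20.1% in Kif3a CRISPR. Atoh1, the factor that defines these progenitors, had log2 fold changes of 0.53 and 0.57 (edgeR adjusted p = 0.00322 and 0.00232), and Gli1, a target of Hedgehog signalling, had -0.84 and -0.82 (edgeR adjusted p = 0.0257 and 0.0349). DESeq2 called 8 of the 14 markers in each comparison, where edgeR called 9. In either comparison the call of Gli1 did not hold in every fit that left out a library. The part of the marker changes in the levels of Foxj1 and the Rfx genes was not tested. Of the 93 motile axoneme genes read below, 12 were at 0 in all 7 libraries, among them Sntn, Tmem212 and Ccdc153. Other genes of that class, such as Spef1 and Mns1, were detected in every library.

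Promoter windows from RefSeq (build GRCm38.p6), the 250 bases before a gene's start, were read for the short X-box core motifs GTTGCC and GTTACC on both strands. Of the 8 genes, 7 had a window; Foxj1 had no entry. Mcidas, Rfx2 and Rfx5 held a core motif, and Rfx1, Rfx3, Rfx4 and Rfx7 did not. Over all 32851 windows the share with a core motif was 15.7%. A full X-box was read as 2 such cores facing each other, with other bases allowed at some places. No window of the 7 genes held one, while 1.29% of all windows did. None held the forkhead motif GTAAACA either, which 3.17% of all windows held. A full X-box can hold a core motif but need not, so these shares can overlap. The windows below belong to the Rfx genes with both a core motif and higher levels in both CRISPR groups, and to 5 genes outside the 8 with a core motif, chosen after their values were seen: Gmnc, Mns1 and Spef1, which rose, and Tmem107 and Dnaic2, which fell. They lie at chr17:56831009-56831258 on the minus strand (Rfx2), chr3:94953858-94954107 on the plus strand (Rfx5), chr16:26968246-26968495 on the minus strand (Gmnc), chr9:72438279-72438528 on the plus strand (Mns1), chr2:131174811-131175060 on the minus strand (Spef1), chr11:69070559-69070808 on the plus strand (Tmem107) and chr11:114727169-114727418 on the plus strand (Dnaic2). Capitals mark the core motifs on either strand.
Rfx2: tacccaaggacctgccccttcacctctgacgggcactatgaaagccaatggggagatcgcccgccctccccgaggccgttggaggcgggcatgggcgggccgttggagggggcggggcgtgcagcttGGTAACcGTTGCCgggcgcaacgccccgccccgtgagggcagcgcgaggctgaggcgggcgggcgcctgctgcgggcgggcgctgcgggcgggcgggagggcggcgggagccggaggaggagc
Rfx5: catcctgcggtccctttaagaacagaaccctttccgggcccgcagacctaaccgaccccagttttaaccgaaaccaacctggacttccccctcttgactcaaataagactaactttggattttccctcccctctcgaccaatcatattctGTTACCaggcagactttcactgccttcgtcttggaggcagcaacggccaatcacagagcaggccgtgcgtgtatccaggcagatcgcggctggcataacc
Gmnc: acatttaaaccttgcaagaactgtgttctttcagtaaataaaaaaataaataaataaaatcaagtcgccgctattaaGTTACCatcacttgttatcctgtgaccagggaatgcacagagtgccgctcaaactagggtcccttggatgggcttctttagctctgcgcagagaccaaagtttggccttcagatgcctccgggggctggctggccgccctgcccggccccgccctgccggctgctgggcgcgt
Mns1: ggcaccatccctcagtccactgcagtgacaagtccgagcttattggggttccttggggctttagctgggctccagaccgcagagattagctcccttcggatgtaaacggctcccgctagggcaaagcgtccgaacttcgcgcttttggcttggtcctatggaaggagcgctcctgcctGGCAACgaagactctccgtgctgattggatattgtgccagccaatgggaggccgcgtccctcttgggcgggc
Spef1: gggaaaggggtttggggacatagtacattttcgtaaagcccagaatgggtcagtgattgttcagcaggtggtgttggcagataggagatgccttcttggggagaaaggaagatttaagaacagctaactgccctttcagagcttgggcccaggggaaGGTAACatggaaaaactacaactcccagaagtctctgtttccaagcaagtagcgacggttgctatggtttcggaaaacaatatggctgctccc
Tmem107: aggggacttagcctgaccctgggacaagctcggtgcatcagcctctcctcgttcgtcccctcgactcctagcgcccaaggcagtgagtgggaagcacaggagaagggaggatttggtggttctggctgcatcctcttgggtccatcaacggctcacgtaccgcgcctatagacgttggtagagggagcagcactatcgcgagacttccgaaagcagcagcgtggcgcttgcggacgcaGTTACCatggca
Dnaic2: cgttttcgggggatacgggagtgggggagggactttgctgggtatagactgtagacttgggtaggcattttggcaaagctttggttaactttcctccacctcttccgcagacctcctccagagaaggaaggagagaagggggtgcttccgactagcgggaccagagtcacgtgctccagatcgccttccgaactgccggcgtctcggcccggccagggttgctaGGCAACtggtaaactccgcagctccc
In Rfx2 the cores began 123 and 116 bases before the start, on opposite strands and 1 base apart. In Rfx5 the core began 100 bases before it, in Gmnc 173, in Mns1 72, in Spef1 93, in Tmem107 12 and in Dnaic2 26. The Dnaic2 window also held a full X-box. Not every gene named below was looked up: Tctn1, Tctn2, Dync2h1, Ift57, Arl13b, Bbs5 and Dnah9 were not. Among the other genes looked up, Ift27 and Ift140, which rose, and Ahi1 and Nphp4, which fell, had a window with a core motif. Ccdc40, Ccdc65, Dnaaf3, Spa17, Cep152, Cep63 and Ift74, which rose, had none, nor did Ak8, Bbip1, Jazf1, Plk4 and Ttc21b, which fell, or a further window of Gmnc. Among the genes looked up, core motifs thus stood before genes of either direction. A match is a string of letters, and whether a factor bound it was not measured.

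Foxj1 was the gene of the set with the largest difference in both CRISPR groups. It had 620, 296 and 317 counts in the Ofd1 CRISPR libraries, 442 and 308 in the Kif3a CRISPR libraries, and 165 and 148 in the GFP control libraries. As levels these were 30.6, 16.5 and 16.3 CPM in Ofd1 CRISPR, 19.1 and 16.6 CPM in Kif3a CRISPR, and 8.11 and 7.42 CPM in GFP control. All 5 CRISPR libraries lay above both control libraries, and Ofd1 CRISPR replicate 1 lay far above the other 4. The mean was 21.1 ± 8.18 CPM in Ofd1 CRISPR (SD, n = 3) and 17.8 ± 1.76 CPM in Kif3a CRISPR (SD, n = 2), against 7.76 ± 0.490 CPM in GFP control (SD, n = 2). The log2 fold change was 1.45 (SE 0.251, 2.72-fold) in Ofd1 CRISPR and 1.20 (SE 0.270, 2.30-fold) in Kif3a CRISPR. Without Ofd1 CRISPR replicate 1 the log2 fold change in Ofd1 CRISPR was 1.08. In cultures measured in bulk, more cells with a transcript and more of it per cell cannot be told apart.

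The set was chosen with earlier results of these data known, so its own differences are a description and carry no test. Of the 8 genes, 6 passed the filter on low counts. Among these, edgeR's quasi-likelihood fit over all 12875 genes tested called Foxj1, Rfx2 and Rfx5 higher in Ofd1 CRISPR, where 14.9% of all genes were called (6.79% higher and 8.09% lower). It called Foxj1 and Rfx5 higher in Kif3a CRISPR, where 20.1% were called (9.19% higher and 10.9% lower). None of the 6 was called lower in either. Both comparisons use the same 2 GFP control libraries. The calls in Kif3a CRISPR rested on its replicate 1: without that library none of the 6 was called, and Foxj1 had a log2 fold change of 1.10. Without GFP control replicate 1 Rfx5 was not called there. In Ofd1 CRISPR Foxj1 was called whichever library was left out, while Rfx2 and Rfx5 were not called without either GFP control library or without replicate 1 or 2 of Ofd1 CRISPR, and Rfx2 also not without either Kif3a CRISPR library.

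**Figure D1:**
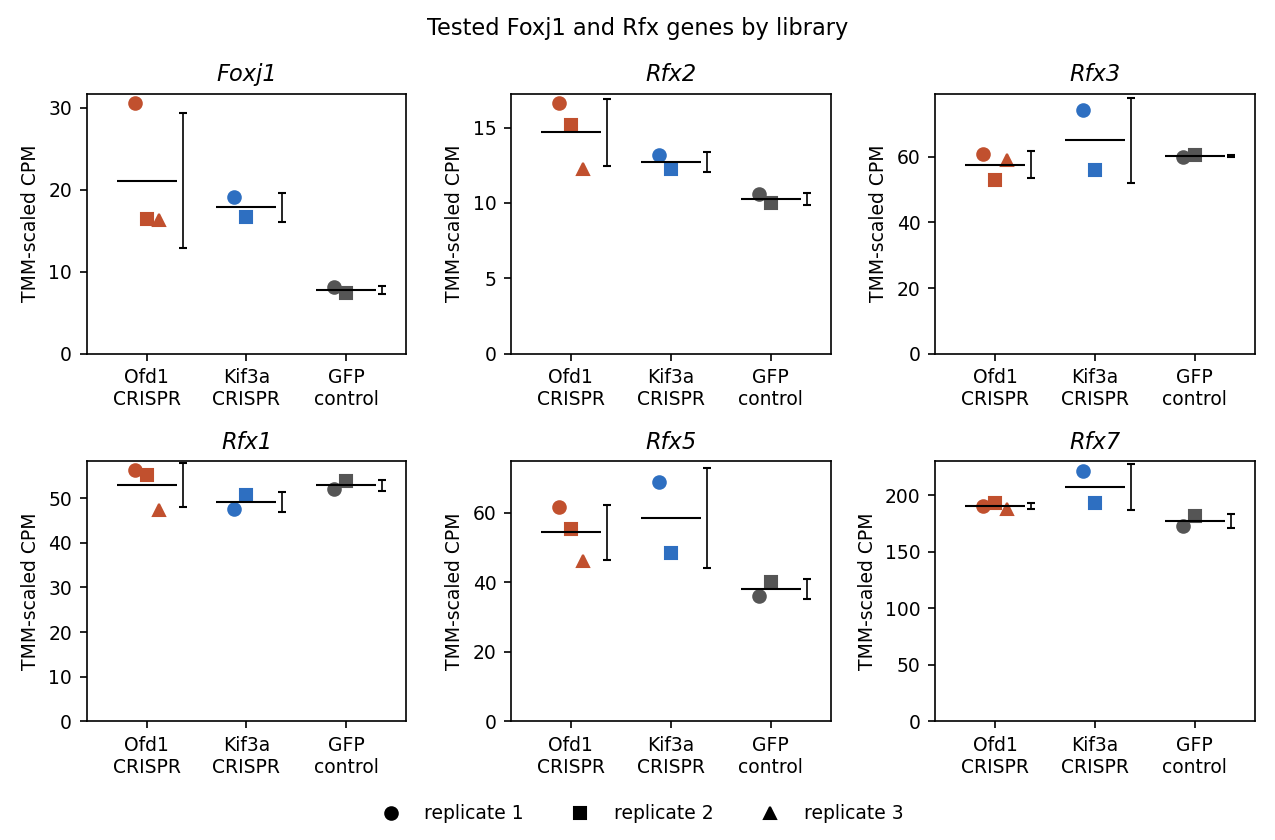
TMM-scaled CPM (vertical axes, each from 0) of the 6 tested genes in every Ofd1 CRISPR, Kif3a CRISPR and GFP control library. Symbols mark the replicate, the horizontal line the group mean and the bar beside it 1 SD. Foxj1 lies between 16.3 and 30.6 CPM in the CRISPR libraries and at 8.11 and 7.42 CPM in GFP control, while Rfx1 and Rfx3 differ little.

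Rfx2 and Rfx3 are the RFX factors best known for cilia: Rfx2 for motile cilia and spermatid flagella, Rfx3 for nodal, ependymal and islet cell cilia. Rfx2 stood at 16.6, 15.2 and 12.2 CPM in Ofd1 CRISPR, 13.2 and 12.2 CPM in Kif3a CRISPR, and 10.6 and 9.97 CPM in GFP control. Again every CRISPR library lay above both controls, with a narrower gap than for Foxj1. The mean was 14.7 ± 2.23 CPM in Ofd1 CRISPR (SD, n = 3) and 12.7 ± 0.663 CPM in Kif3a CRISPR (SD, n = 2), against 10.3 ± 0.420 CPM in GFP control (SD, n = 2), and the log2 fold changes were 0.52 (SE 0.140) and 0.31 (SE 0.153). Rfx3 stood at 60.8, 53.0 and 59.1 CPM in Ofd1 CRISPR, 74.2 and 56.0 CPM in Kif3a CRISPR, and 60.0 and 60.5 CPM in GFP control. Its groups overlapped, and its log2 fold changes of -0.06 (SE 0.108) and 0.11 (SE 0.118) were about as large as their errors. The highest Rfx3 value came from Kif3a CRISPR replicate 1, and without that library the log2 fold change in Kif3a CRISPR was -0.10.

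Rfx1 is the broadly expressed founding member of the family. It stood at 56.3, 55.1 and 47.3 CPM in Ofd1 CRISPR, 47.6 and 50.8 CPM in Kif3a CRISPR, and 52.04 and 53.8 CPM in GFP control. The Ofd1 CRISPR libraries spread around the controls, and both Kif3a CRISPR libraries lay just below them. The log2 fold changes were 0.00 (SE 0.0860) in Ofd1 CRISPR and -0.11 (SE 0.0942) in Kif3a CRISPR. Rfx7, which in Xenopus is needed for cilia of the neural tube, was the gene of the set with the highest level. It stood at 190.2, 192.7 and 188 CPM in Ofd1 CRISPR, 221 and 193 CPM in Kif3a CRISPR, and 173 and 181 CPM in GFP control. Its CRISPR libraries all lay above the controls, by little: the log2 fold changes were 0.10 (SE 0.0721) and 0.23 (SE 0.0787). Groups this small separate often: of all genes tested, 24.5% had every Ofd1 CRISPR library above both controls and 34.0% had every Kif3a CRISPR library above them, and in the set Foxj1, Rfx2, Rfx5 and Rfx7 did in each comparison. The Rfx1 pattern in Kif3a CRISPR was also a separation, of the kind that 66.5% of all genes showed in one direction or the other; the share for Ofd1 CRISPR was 49.6%.

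Rfx5 is the DNA-binding subunit of the complex, with Rfxank and Rfxap, that switches on MHC class II genes, and it is not known chiefly for cilia. It stood at 61.7, 55.4 and 46.0 CPM in Ofd1 CRISPR, 68.8 and 48.4 CPM in Kif3a CRISPR, and 36.1 and 40.1 CPM in GFP control. All 5 CRISPR libraries lay above both controls. The mean was 54.3 ± 7.92 CPM in Ofd1 CRISPR (SD, n = 3) and 58.6 ± 14.4 CPM in Kif3a CRISPR (SD, n = 2), against 38.1 ± 2.87 CPM in GFP control (SD, n = 2). The log2 fold change was 0.51 (SE 0.148, 1.43-fold) in Ofd1 CRISPR and 0.62 (SE 0.160, 1.54-fold) in Kif3a CRISPR. The Kif3a CRISPR value depended on the library: it was 0.35 without replicate 1 and 0.85 without replicate 2 of that group.

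The partners of Rfx5 did not pass the test in either comparison. Rfxank, its ankyrin repeat partner, stood at 40.7, 36.1 and 31.2 CPM in Ofd1 CRISPR, 33.7 and 32.3 CPM in Kif3a CRISPR, and 29.1 and 29.4 CPM in GFP control (log2 fold changes 0.30 and 0.17, edgeR adjusted p = 0.0753 and 0.306). Rfxap had log2 fold changes of 0.06 and -0.04 (edgeR adjusted p = 0.708 and 0.840). Ciita, the co-activator that MHC class II genes need beside the complex, had 15, 11 and 13 counts in Ofd1 CRISPR, 14 and 19 in Kif3a CRISPR, and 16 and 10 in GFP control. Of the 13 genes listed as MHC class II genes and their activators, 5 were tested and none was called higher. Cd74, the invariant chain, was called lower in both comparisons (edgeR adjusted p = 0.0349 in Ofd1 CRISPR and 0.0197 in Kif3a CRISPR). Of all genes 8.09% were called lower in Ofd1 CRISPR and 10.9% in Kif3a CRISPR. Cd74 had 29, 1 and 10 counts in Ofd1 CRISPR, 0 and 0 in Kif3a CRISPR, and 571 and 3 in GFP control. Nearly all of its counts came from GFP control replicate 1, as did those of H2-Aa, with 4, 0 and 1 counts in Ofd1 CRISPR, 0 and 0 in Kif3a CRISPR, and 92 and 0 in GFP control. Without GFP control replicate 1 the adjusted p for Cd74 was 0.404 in Ofd1 CRISPR and 0.425 in Kif3a CRISPR, and its log2 fold change in Ofd1 CRISPR turned to 2.14. Its call in Ofd1 CRISPR was also lost with DESeq2 (adjusted p = 0.219) and with only the groups compared in the fit (0.0543). The same library had the highest level of myeloid markers: the 14 microglia and macrophage markers summed to 4.68, 4.62 and 3.39 CPM in Ofd1 CRISPR, 3.37 and 3.67 CPM in Kif3a CRISPR, and 27.1 and 2.96 CPM in GFP control, with the microglial receptor Cx3cr1 at 0 in all 7. Of the 14 markers 3 were tested. Ctss was called lower in Kif3a CRISPR (edgeR adjusted p = 0.0344), though not by DESeq2 (adjusted p = 0.207). It had 12, 0 and 2 counts in Ofd1 CRISPR, 0 and 0 in Kif3a CRISPR, and 152 and 0 in GFP control. The log2 fold change of Rfx5 without GFP control replicate 1 was 0.44 in Ofd1 CRISPR and 0.55 in Kif3a CRISPR. For Foxj1 it was 1.51 and 1.27.

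Rfx4 and Mcidas were close to undetected. Rfx4, an RFX factor of the developing brain, had 2, 0 and 0 counts in Ofd1 CRISPR, 3 and 0 in Kif3a CRISPR, and 1 and 3 in GFP control. Mcidas had 0, 1 and 0 counts in Ofd1 CRISPR, 1 and 0 in Kif3a CRISPR, and 1 and 0 in GFP control. No library exceeded 3 counts for either, so no fold was computed, and a fall or a small rise was not detectable at this depth. A large rise was within reach: Gmnc, read below, went from 1 and 3 counts in GFP control to 8 to 51 in the CRISPR libraries. Neither Rfx4 nor Mcidas showed a rise of that size. The relatives Rfx6 (0 counts in all 7 libraries) and Rfx8 (at most 2 counts in a library) were as low. The other relatives tested, Rfxank, Rfxap, Foxj2 and Foxj3, were not called in either comparison by edgeR or DESeq2, although 1 of them in Ofd1 CRISPR and 0 in Kif3a CRISPR had an unadjusted p under 0.05.

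Per kilobase of transcript, the order of levels differed between the groups in the place of Foxj1 and in that of Rfx1 and Rfx5. Transcript lengths came from the longest protein-coding transcript of each gene in GENCODE M21. In Ofd1 CRISPR the mean level per kb was 23.8 CPM for Rfx7, 12.7 for Rfx1, 12.2 for Rfx5, 8.05 for Foxj1, 6.30 for Rfx3 and 4.38 for Rfx2. The libraries of Rfx1 and Rfx5, of Rfx5 and Foxj1, and of Foxj1 and Rfx3 overlapped. In Kif3a CRISPR it was 25.9 CPM for Rfx7, 13.2 for Rfx5, 11.8 for Rfx1, 7.12 for Rfx3, 6.80 for Foxj1 and 3.79 for Rfx2, with overlap between Rfx5 and Rfx1 and between Rfx3 and Foxj1. In GFP control it was 22.2 CPM for Rfx7, 12.7 for Rfx1, 8.56 for Rfx5, 6.59 for Rfx3, 3.07 for Rfx2 and 2.96 for Foxj1, with overlap between Rfx2 and Foxj1. Foxj1 thus stood above Rfx2 in every CRISPR library and beside it in the controls.

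**Figure D2:**
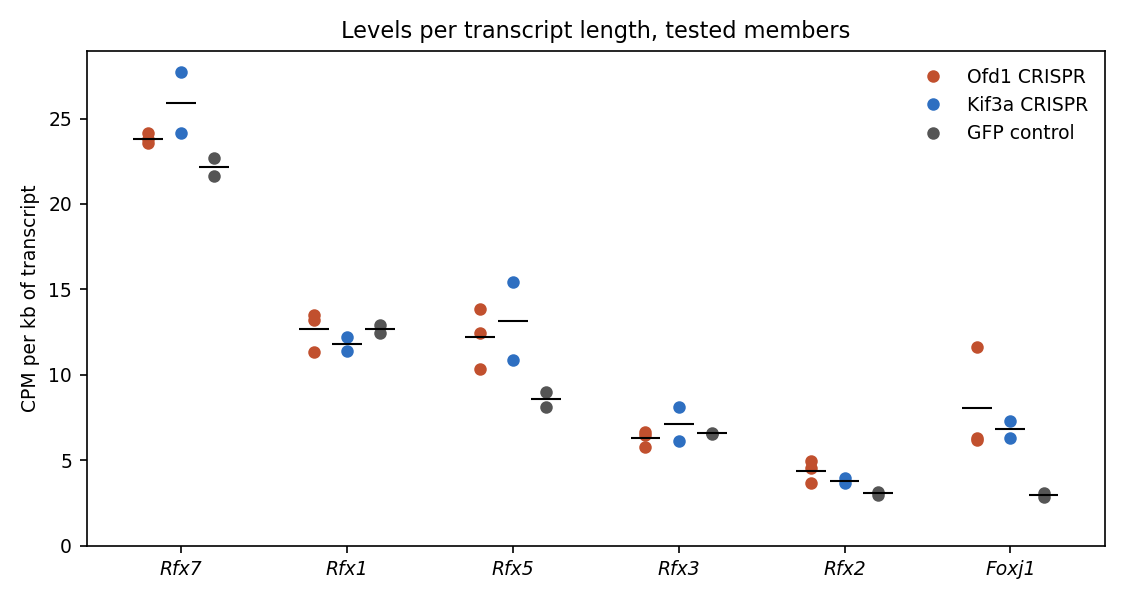
Level per kilobase of transcript (TMM-scaled CPM per kb, vertical axis from 0) of the 6 tested genes. Points are libraries, coloured by group, and lines are group means. Rfx7 is highest in all groups, and Foxj1 goes with Rfx2 in GFP control (2.96 and 3.07 CPM per kb) but not in the CRISPR groups.

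Set directly against each other, the Ofd1 CRISPR and Kif3a CRISPR groups gave no call among the 6 tested genes, by edgeR or by DESeq2, and none had an unadjusted p under 0.05. Over all genes edgeR called 0.179% in this comparison (0.171% higher and 0.00777% lower). Only Rfx7 had groups that did not overlap, with the Ofd1 CRISPR libraries lower; 23.0% of all genes had such a separation. The log2 fold change, Ofd1 CRISPR over Kif3a CRISPR, was 0.24 (SE 0.228) for Foxj1, 0.21 (SE 0.137) for Rfx2, 0.11 (SE 0.0864) for Rfx1, -0.11 (SE 0.143) for Rfx5, -0.12 (SE 0.0715) for Rfx7 and -0.18 (SE 0.107) for Rfx3. The sign for Foxj1 depended on Ofd1 CRISPR replicate 1, and without it the log2 fold change was -0.13. With errors of this size, the values do not show that both guides act alike.

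Of the genes that stand around Foxj1 in multiciliated cells, Gmnc rose in both comparisons while Mcidas and Ccno stayed low. Gmnc, the upstream switch of the multiciliated fate, had 31, 8 and 19 counts in Ofd1 CRISPR, 51 and 26 in Kif3a CRISPR, and 1 and 3 in GFP control. All CRISPR libraries lay above the controls, at levels of 0.445 to 1.53 CPM in Ofd1 CRISPR and 1.40 to 2.20 CPM in Kif3a CRISPR. The ratio of summed, depth-scaled counts was 10.1 (58 counts against 4, 95% interval 3.75 to 38.4) in Ofd1 CRISPR and 18.6 (77 counts against 4, 6.98 to 70.01) in Kif3a CRISPR, exact intervals that cover counting error only. The edgeR adjusted p was 0.0123 in Ofd1 CRISPR (log2 fold change 3.25, SE 0.730) and 0.00187 in Kif3a CRISPR (log2 fold change 4.12, SE 0.695). The call was lost in Ofd1 CRISPR without GFP control replicate 1 (adjusted p = 0.115) and in Kif3a CRISPR without its replicate 1 (adjusted p = 0.0517). With so few control counts the size depended on the library: leaving out GFP control replicate 1 gave log2 fold changes of 2.68 in Ofd1 CRISPR and 3.55 in Kif3a CRISPR, and leaving out GFP control replicate 2 gave 4.18 and 5.05. It was 2.78 in Ofd1 CRISPR without its replicate 1. Ccno, a cyclin-like gene of basal body amplification, had 7, 9 and 4 counts in Ofd1 CRISPR, 6 and 10 in Kif3a CRISPR, and 7 and 6 in GFP control. Trp73, which encodes a p53 family factor of multiciliated cells, did not exceed 4 counts in any library, and Cdc20b, the host gene of the miR-449 cluster, had 0 counts in all 7.

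**Figure D3:**
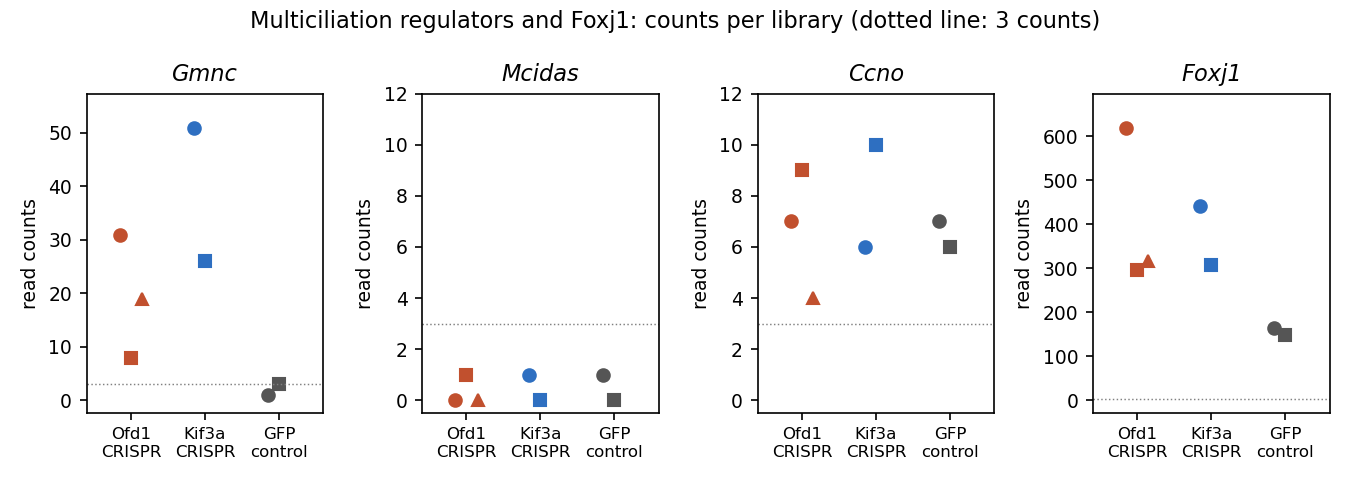
Read counts per library (vertical axes, each with its own scale) of Gmnc, Mcidas, Ccno and Foxj1 in Ofd1 CRISPR, Kif3a CRISPR and GFP control. Circles, squares and triangles mark replicates 1, 2 and 3, and the dotted line marks 3 counts. Gmnc has 8 to 51 counts in the CRISPR libraries and 1 and 3 in GFP control, while Mcidas has at most 1 count anywhere.

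Of the 22 genes listed as multiciliation regulators, 17 were tested. In Ofd1 CRISPR 2 rose and 1 fell, 17.6% of those tested against 14.9% of all genes, with a median log2 fold change of -0.10 against 0.00. In Kif3a CRISPR 3 rose and 2 fell, 29.4% against 20.1%, with a median of -0.05 against 0.01. Beside Gmnc the genes that rose were centriole genes. Cep152, a scaffold of centriole duplication, stood at 46.8, 49.4 and 43.4 CPM in Ofd1 CRISPR, 51.2 and 46.5 CPM in Kif3a CRISPR, and 37.2 and 35.0 CPM in GFP control (log2 fold changes 0.37 and 0.44, edgeR adjusted p = 0.0140 and 0.00629). Its partner Cep63 rose in Kif3a CRISPR (log2 fold change 0.41, edgeR adjusted p = 0.0365), though not by DESeq2 (adjusted p = 0.0509). Plk4, the kinase that starts centriole duplication, fell in both (log2 fold change -0.35 in each, edgeR adjusted p = 0.0359 and 0.0403), and Jazf1, a zinc finger gene, fell in Kif3a CRISPR (log2 fold change -0.70, edgeR adjusted p = 0.0191). The calls of Cep152, Cep63, Plk4 and Jazf1 were each lost without GFP control replicate 2, with adjusted p between 0.0542 and 0.203, that of Plk4 also with only the groups compared (0.0588 in Ofd1 CRISPR) and with library totals alone (0.0521 in Kif3a CRISPR), and without GFP control replicate 1 none of the regulators was called in Ofd1 CRISPR.

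Motile axoneme genes, the class that Foxj1 is known to drive, were mostly low or absent, and few moved. Of the 93 such genes measured, 12 were at 0 throughout, 34 (those included) had at most 3 counts in every library, and 44 were tested. In Ofd1 CRISPR 5 rose and 1 fell, 13.6% of those tested, with a median log2 fold change of 0.05. Of all genes 14.9% were called there (6.79% higher and 8.09% lower). In Kif3a CRISPR 4 rose and 2 fell, 13.6% against 20.1% (9.19% higher and 10.9% lower), with a median of 0.04. Their summed level was 449, 440.2 and 439 CPM in Ofd1 CRISPR, 435 and 431 CPM in Kif3a CRISPR, and 416 and 408 CPM in GFP control. The genes that rose took part in different structures of the axoneme. Spef1, a microtubule-binding protein of the central pair, stood at 32.8, 32.2 and 23.6 CPM in Ofd1 CRISPR, 24.6 and 22.0 CPM in Kif3a CRISPR, and 18.1 and 15.1 CPM in GFP control. Its log2 fold change was 0.83 (SE 0.146, edgeR adjusted p = 0.00349) in Ofd1 CRISPR and 0.49 (SE 0.158, adjusted p = 0.0481) in Kif3a CRISPR. Mns1, a protein inside axonemal microtubules, stood at 29.7, 33.8 and 25.6 CPM in Ofd1 CRISPR, 30.6 and 28.0 CPM in Kif3a CRISPR, and 19.7 and 17.4 CPM in GFP control. Its log2 fold change was 0.68 (SE 0.121, edgeR adjusted p = 0.00359) in Ofd1 CRISPR and 0.66 (SE 0.130, adjusted p = 0.00446) in Kif3a CRISPR. For both genes every CRISPR library lay above both controls.

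Other axoneme genes changed with smaller margins. Ccdc40, a ruler of the axonemal repeat, rose in both comparisons (log2 fold changes 0.59 and 0.52, edgeR adjusted p = 0.0148 and 0.0301). Dnaaf3, a dynein assembly factor, rose in Ofd1 CRISPR (0.85, adjusted p = 0.00974 by edgeR), as did Ccdc65, of the nexin-dynein regulatory complex (0.99, adjusted p = 0.0171 by edgeR); their log2 fold changes in Kif3a CRISPR were 0.54 and 0.43 (edgeR adjusted p = 0.0789 and 0.273). Spa17, a sperm and cilium protein, rose in Kif3a CRISPR (0.92, edgeR adjusted p = 0.0352). In the other direction Ak8, an adenylate kinase of motile cilia, fell in both (-0.92 and -1.02, edgeR adjusted p = 0.0485 and 0.0405), and the outer arm dynein gene Dnaic2 fell in Kif3a CRISPR (-0.68, edgeR adjusted p = 0.0291). DESeq2 called 4 axoneme genes in Kif3a CRISPR where edgeR called 6, and it did not call Spa17 (adjusted p = 0.0840) or Dnaic2 (adjusted p = 0.0528). The counts depended on the control libraries: without GFP control replicate 1, 3 axoneme genes were called in Ofd1 CRISPR and 1 in Kif3a CRISPR, and without GFP control replicate 2 these were 2 and 1. Without Kif3a CRISPR replicate 1 none was called in Kif3a CRISPR, where Mns1 then had an adjusted p of 0.0737. In the direct comparison none was called by edgeR or DESeq2, and 2 had an unadjusted p under 0.05.

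Genes of the primary cilium that are linked to RFX factors, those for intraflagellar transport, the BBSome and the transition zone, were well expressed and went both ways. Of 64 such genes, 63 were tested. In Ofd1 CRISPR 4 rose and 2 fell, 9.52% against 14.9% of all genes, with a median log2 fold change of 0.07. In Kif3a CRISPR 3 rose and 7 fell, 15.9% against 20.1%, with a median of 0.06. Ift74, a core subunit of the transport train, stood at 54.3, 50.5 and 60.04 CPM in Ofd1 CRISPR, 67.0 and 57.1 CPM in Kif3a CRISPR, and 43.9 and 41.9 CPM in GFP control (log2 fold changes 0.36 and 0.53, edgeR adjusted p = 0.0267 and 0.00384). Tmem107, a transition zone membrane protein with a core motif in its promoter window, stood at 29.4, 27.5 and 31.3 CPM in Ofd1 CRISPR, 22.8 and 25.0 CPM in Kif3a CRISPR, and 36.3 and 37.3 CPM in GFP control. It fell in both comparisons, by 0.32 and 0.63 on the log2 scale (edgeR adjusted p = 0.0264 and 0.000996). Every CRISPR library lay above both controls for Ift74 and below both for Tmem107.

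The remaining changes among these genes were small. Ift27 and Ift140, of the transport train, and Tctn2, of the transition zone, rose in Ofd1 CRISPR (log2 fold changes 0.25, 0.28 and 0.34, edgeR adjusted p = 0.0318, 0.0362 and 0.0455), while the BBSome gene Bbip1 fell (-0.38, edgeR adjusted p = 0.0237). In Kif3a CRISPR Tctn1, of the transition zone, and the transport dynein gene Dync2h1 rose (0.44 and 0.35, edgeR adjusted p = 0.0211 and 0.0486). Nphp4 and Ahi1, of the transition zone, and Ttc21b, of the retrograde transport complex, fell there (-0.50, -0.38 and -0.37, edgeR adjusted p = 0.00464, 0.00685 and 0.0139), and so did Ift57, of the transport train, Arl13b, a ciliary membrane GTPase, and the BBSome gene Bbs5 (-0.32, -0.29 and -0.50, edgeR adjusted p = 0.0325, 0.0334 and 0.0354). No gene of the class was called in Ofd1 CRISPR when either GFP control library was left out. In Kif3a CRISPR leaving out GFP control replicate 1 gave 1 higher and 2 lower, leaving out GFP control replicate 2 gave 1 higher and 4 lower, and 1 fell and none rose without Kif3a CRISPR replicate 1; the call of Tmem107 held whichever library was left out, while that of Ift74 was lost without Kif3a CRISPR replicate 1 (adjusted p = 0.0715). In the direct comparison none was called by edgeR or DESeq2, and 6 had an unadjusted p under 0.05.

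**Figure D4:**
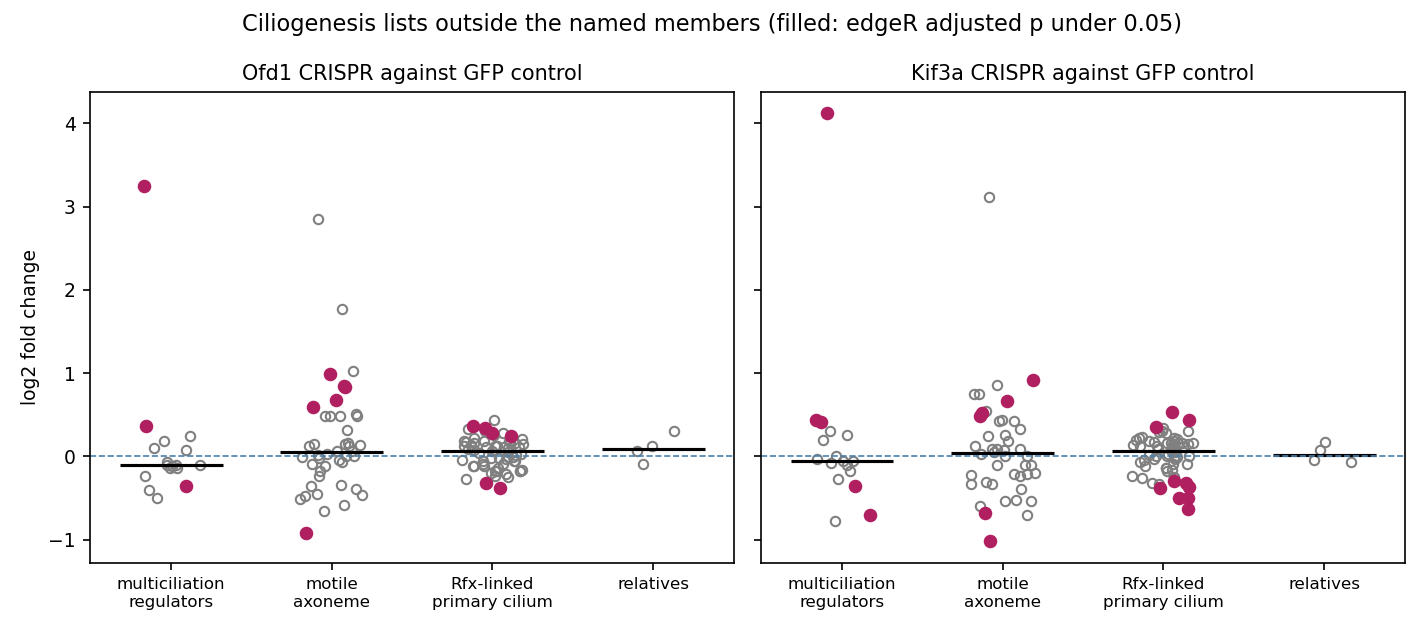
Log2 fold change of each tested gene outside the set in the classes of multiciliation regulators, motile axoneme, Rfx-linked primary cilium and relatives, for Ofd1 CRISPR against GFP control (left) and Kif3a CRISPR against GFP control (right). Filled points passed at an edgeR adjusted p under 0.05 and lines are class medians. Medians lie between -0.10 and 0.09, and Gmnc is the highest point in each panel.

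By the shape of the level over the 7 libraries, the 5 genes nearest to Foxj1 were outside all cilium lists used here. Those lists held few of the tested genes: 4 relatives, 17 multiciliation regulators, 44 motile axoneme genes and 63 primary cilium genes. Most genes would thus have no list gene among their 5 nearest, and its absence here says little about Foxj1. Likeness was measured as the root mean square distance between profiles of log2(CPM + 0.1), each centred on its mean, over the 12038 tested genes that averaged 1 CPM or more. The nearest were 2010300C02Rik (0.0908), Lrtm2 (0.102), Trnp1 (0.105), Baalc (0.111) and Ppp2r2b (0.135), against a median distance of 0.661. Lrtm2 encodes a leucine-rich repeat membrane protein, and Ppp2r2b a regulatory subunit of a phosphatase. The 5 genes were chosen for this likeness, so the features they share with Foxj1 follow from the choice. Like Foxj1 they were highest in Ofd1 CRISPR replicate 1: 2010300C02Rik stood at 45.6, 26.04 and 27.6 CPM in Ofd1 CRISPR, 34.1 and 28.6 CPM in Kif3a CRISPR, and 12.5 and 12.9 CPM in GFP control. Log2 fold changes of these 5 genes, near those of Foxj1 by the same choice, were 1.29 to 1.49 in Ofd1 CRISPR and 1.24 to 1.41 in Kif3a CRISPR. The other genes of the set were farther off, Rfx5 at 0.425, Rfx2 at 0.446, Rfx7 at 0.601, Rfx3 at 0.654 and Rfx1 at 0.658. A gene with the same level in every library would lie at 0.655, which Rfx3 and Rfx1 nearly match. Distances over 7 points that share their libraries and groups are a description.

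**Figure D5:**
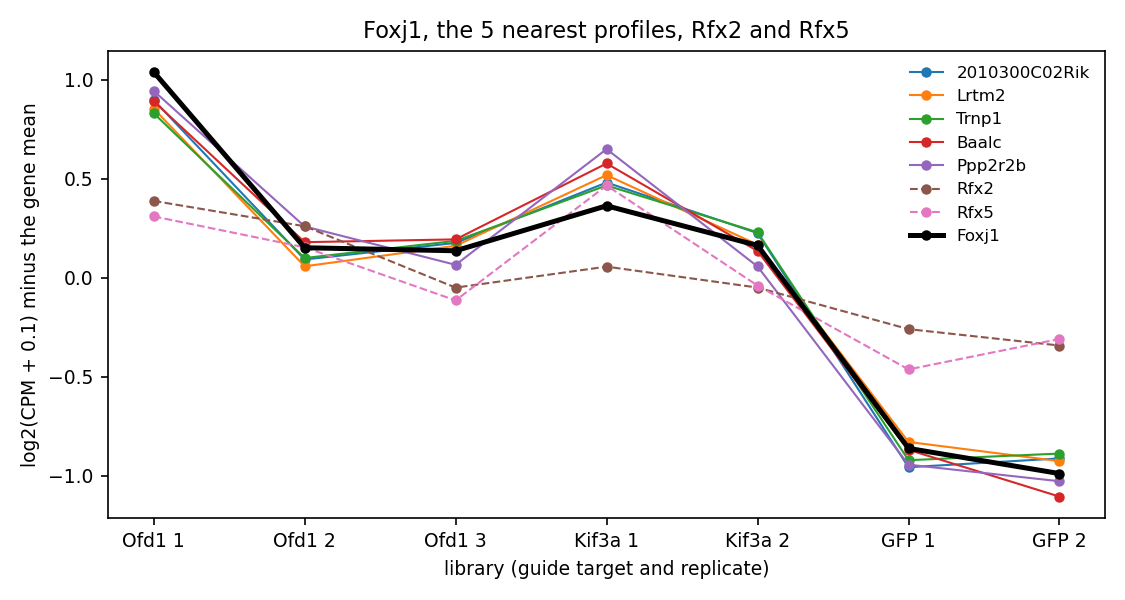
Centred log2(CPM + 0.1) by library (horizontal axis: guide target and replicate) of Foxj1 (thick line), the 5 nearest genes (thin lines) and Rfx2 and Rfx5 (dashed). Lines join the values of a gene and imply no order of libraries. The 5 nearest genes have distances of 0.0908 to 0.135 from Foxj1, and Rfx2 and Rfx5 have the same direction with a smaller range.

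Markers of other cell types that use Foxj1 or RFX factors were read beside these results. The 8 choroid plexus markers summed to 99.6, 86.0 and 89.03 CPM in Ofd1 CRISPR, 101 and 94.5 CPM in Kif3a CRISPR, and 68.8 and 65.6 CPM in GFP control. Nearly all of that sum and of its difference was Otx2, which granule neuron progenitors of the posterior cerebellum also express and which rose (log2 fold changes 0.48 and 0.59, edgeR adjusted p = 0.00301 and 0.000949); the other choroid plexus markers tested, Aqp1 and Slc4a5, had log2 fold changes of -0.16 and -0.38 in Ofd1 CRISPR and -0.18 and -0.82 in Kif3a CRISPR and did not pass, and Folr1 and Kcnj13 were at 0 in all 7 libraries. Of 12 astrocyte and neural stem cell markers 10 were tested, and 3 rose (Vim, Hes5 and Slc1a2) and 2 fell (Sox2 and Sox9) in each comparison, 5 of the 10 against 14.9% of all genes in Ofd1 CRISPR and 20.1% in Kif3a CRISPR. Sox2 and Sox9 were called whichever library was left out. Leaving out a GFP control library ended the call of Hes5 in both comparisons (adjusted p between 0.0797 and 0.120), as did leaving out either Kif3a CRISPR library in Kif3a CRISPR (0.0588 and 0.169). Vim was not called when GFP control replicate 2 was left out (adjusted p = 0.110 in Ofd1 CRISPR and 0.126 in Kif3a CRISPR) or, in Kif3a CRISPR, its own replicate 1 (0.132). The call of Slc1a2 was lost in Ofd1 CRISPR without either GFP control library, without its replicate 1 or 2 and with RLE factors (adjusted p between 0.0511 and 0.296), and in Kif3a CRISPR without GFP control replicate 1 or its own replicate 1 (0.0618 and 0.0727). The summed level was 1545 to 1676 CPM in Ofd1 CRISPR, 1545 to 1663 CPM in Kif3a CRISPR, and 1514 to 1551 CPM in GFP control. Aqp4, the water channel of astrocytes and ependyma, was at 0 in all 7. Endothelial markers (6 genes) summed to 1.18 to 1.61 CPM in Ofd1 CRISPR, 0.518 to 0.755 CPM in Kif3a CRISPR, and 2.15 to 3.10 CPM in GFP control, with the tight junction gene Cldn5 at 0. Cdh5 was the only endothelial marker tested, with 14, 21 and 10 counts in Ofd1 CRISPR, 9 and 10 in Kif3a CRISPR, and 28 and 35 in GFP control. It was called lower in Kif3a CRISPR (log2 fold change -1.76, edgeR adjusted p = 0.0145), but not in every fit that left out a library. Fibroblast markers (6 genes) summed to 0.514 to 0.890 CPM in Ofd1 CRISPR, 0.647 to 0.691 CPM in Kif3a CRISPR, and 0.590 to 1.20 CPM in GFP control. The part of these cell types in the levels of Foxj1, Rfx2 and Rfx5 was not tested.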

How the data were processed

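RNA from 7 cultures was sequenced in 1 run (stranded mRNA kit, single reads, 75 bases), per the labels' protocols. The authors deposited raw counts of reads for each gene symbol, not normalized. STAR, DESeq2 and mm9 appear, per the submitters' processing notes, without version or role. No source used here names the read counter, its strand setting or its annotation, so reads of overlapping, antisense or near-identical genes may be misassigned. All 7 columns were matched to samples by the names in their labels, which call the replicates biological; 2 of the 3 GFP replicates in the series text were analysed here.

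Of 24047 genes, 6795 had no count and 12875 passed edgeR's filterByExpr (edgeR 4.0.16, R 4.3.3). A quasi-likelihood model with TMM factors and group means covered all 7 libraries (4 residual degrees of freedom), and its p-values were adjusted by Benjamini-Hochberg over all tested genes and called under 0.05. Every adjusted p in the text is from this model unless DESeq2 (1.42.0) is named. Its common biological coefficient of variation was 7.43%. The code was also run on simulated counts that gave every gene the same dispersion and changed only the Ofd1 CRISPR group. That run therefore does not show how the model treats genes that differ in their spread. Errors of log2 fold changes are standard errors derived from the F statistic. Replicates of a group differed by more than sampling noise in every pair. The members and the 12 gene lists were chosen with earlier results of these data known. From each list up to 5 called genes with the smallest adjusted p were named per comparison, with the 5 nearest profiles to Foxj1; other list genes were named after their values were seen. Reads carry no molecular identifiers, so limits and intervals cover counting error only. Gene lengths came from GENCODE M21 and promoter windows from RefSeq, both on GRCm38 builds, and no coordinates of the counted genes are given because the counts used mm9. Alternatives were RLE factors, library totals alone, no filter on low counts, DESeq2, the replicate number as a block, only the groups compared, and leaving out each library.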

Additional observations from a re-analysis of the deposited data

How the results depend on the processing

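Foxj1 kept its direction in Ofd1 CRISPR (log2 fold change 1.08 to 1.60) and in Kif3a CRISPR (1.10 to 1.30) under every alternative. Leaving out each library in turn gave 664 to 2831 genes called in Ofd1 CRISPR (1915 with all libraries), 686 to 3119 in Kif3a CRISPR (2584) and 0 to 50 in the direct comparison (23), and 2 to 9 motile axoneme genes in Ofd1 CRISPR (6) and 0 to 7 in Kif3a CRISPR (6); fewer samples were then fitted, and the sample left alone in its group was assumed to vary like the others. The direct comparison called 80 genes with no filter on low counts and 103 with DESeq2. Adding the replicate number as a block gave 3496 genes in Ofd1 CRISPR, 3575 in Kif3a CRISPR, 191 in the direct comparison and 1 motile axoneme gene there; deviations of same-numbered libraries correlated between -0.009 and 0.234, and not every pair reached 0.1, so the numbers were not taken to pair the samples. The log2 fold change of Cd74 in Ofd1 CRISPR (-4.35) ran from -5.56 without Ofd1 CRISPR replicate 1 to 2.14, reversed, without GFP control replicate 1. With library totals alone the share of calls that were higher was 57.5% in Ofd1 CRISPR (45.6% with TMM) and 54.3% in Kif3a CRISPR (45.8%), and Rfx7 joined the calls in Kif3a CRISPR there, under the block, with only the groups compared, and without Ofd1 CRISPR replicate 1 or Kif3a CRISPR replicate 2. Each result was set against each alternative. The main results were the Foxj1 values against GFP control and the counts of all genes and motile axoneme genes called. Of their pairs with an alternative, 85 stayed as they were and 19 moved. Of the pairs for other single genes and lists, 1704 stayed as they were, 122 lost their call, 4 gained one, 128 moved and 1 reversed. The cause of these changes was not tested. For genes at or under 3 counts in every library, among them Rfx4 and Mcidas, a fall or a small rise was out of reach at this depth.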

Other observations

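Dnah9, an outer arm dynein heavy chain of motile cilia, had 15, 6 and 2 counts in Ofd1 CRISPR, 12 and 8 in Kif3a CRISPR, and 2 and 0 in GFP control, and was singled out after its values were seen. It did not pass the test (edgeR adjusted p = 0.0909 in Ofd1 CRISPR and 0.0604 in Kif3a CRISPR).

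Pdgfra, the receptor that marks oligodendrocyte precursors and that other progenitors also carry, was lower in every CRISPR library: it stood at 79.5, 140 and 168.5 CPM in Ofd1 CRISPR, 89.5 and 131 CPM in Kif3a CRISPR, and 269 and 256 CPM in GFP control. It fell by 1.02 in Ofd1 CRISPR and by 1.26 in Kif3a CRISPR on the log2 scale (edgeR adjusted p = 0.0126 and 0.00605). The call was lost in Ofd1 CRISPR without GFP control replicate 1 (adjusted p = 0.0668) and in Kif3a CRISPR without its replicate 1 (adjusted p = 0.134). Of the 8 oligodendrocyte markers 3 were tested, and 1 fell in Ofd1 CRISPR and 2 in Kif3a CRISPR. Of all genes 8.09% were called lower in Ofd1 CRISPR and 10.9% in Kif3a CRISPR. Beside Pdgfra, Cnp fell in Kif3a CRISPR (log2 fold change -0.38, edgeR adjusted p = 0.0335), but not in every fit that left out a library was it called. The oligodendrocyte genes Mog and Sox10 were at 0 in all 7 libraries.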
